A study of Mus musculus with 20 samples.

Results

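Type I interferon-stimulated genes are the genes that cells switch on after type I interferon binds its receptor. A set of 33 of them was followed in mouse colonic eosinophils and macrophages, from naive colon and from colonic tumors. The set was chosen by name, with earlier results of these data known. All 33 names were found once in each of the 2 tables of 50600 gene rows. Eosinophils are granulocytes that live in the healthy gut wall, and macrophages are its resident phagocytes. RNA was measured by CEL-Seq, which reads the barcoded 3′ ends of polyadenylated transcripts. All mice were wild-type C57BL/6 per the labels, and no age or sex is given there. Eosinophils gave 2 libraries from naive colon and 7 from tumors, and macrophages gave 5 and 6. The tumors followed an induction that the labels abbreviate as CAC, and both cell types had been sorted from digested colon. Nothing in the labels says that libraries of a group came from separate mice, so p-values measure the spread between these libraries.

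Type I interferons signal through the receptor chains IFNAR1 and IFNAR2 and the kinases JAK1 and TYK2. These kinases activate STAT2, which joins IRF9 in the transcription factor ISGF3. ISGF3 binds the interferon-stimulated response element, and the genes so induced detect foreign nucleic acids, block translation or replication of viruses, or feed back on the pathway. In the gut, phagocytes are known to keep a tonic level of these transcripts.

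The promoters below carry the letters of that element, and they are printed for members of several roles whose values the results describe. RefSeq windows of 300 bases (250 before and 50 after the start, GRCm38.p6) were matched by symbol for 24 of the 33 genes. The letters GAAANNGAAA, a repeated half-site, were searched on both strands and occurred in 13 of these 24 (54.2%), against 1079 of 27025 genes with a window (3.99%). Capitals mark the matches, overlapping ones joined, and each stretch is written 5′ to 3′ on the gene's strand. The stretches are Ifit1 (chr19:34640773-34640825, plus strand), Ifit3 (chr19:34583361-34583428, plus), Ifit3b (chr19:34607757-34607824, plus), Isg15 (chr4:156200863-156200908, minus), Rsad2 (chr12:26456551-26456584, minus) and Oas3 (chr5:120777713-120777746, minus).
Ifit1: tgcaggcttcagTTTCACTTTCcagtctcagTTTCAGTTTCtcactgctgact
Ifit3: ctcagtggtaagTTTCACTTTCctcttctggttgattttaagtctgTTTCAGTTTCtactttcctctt
Ifit3b: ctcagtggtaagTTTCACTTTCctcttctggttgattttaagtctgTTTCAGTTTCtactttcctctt
Isg15: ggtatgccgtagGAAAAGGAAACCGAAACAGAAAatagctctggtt
Rsad2: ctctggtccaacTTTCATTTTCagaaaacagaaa
Oas3: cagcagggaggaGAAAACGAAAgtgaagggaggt

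In the mouse annotation (GENCODE M21, GRCm38) the gene bodies of Ifit3 (chr19:34583531-34588731), Ifit3b (chr19:34607970-34613401) and Ifit1 (chr19:34640871-34650009) follow one another on the plus strand of chromosome 19. The other members called in tumor eosinophils are Irf9 (chr14:55603571-55610030, plus), Ifitm3 (chr7:141009586-141010770, minus), Rtp4 (chr16:23520291-23614222, plus) and Lgals3bp (chr11:118392751-118402092, minus).

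The stretches of Ifit3 and Ifit3b were identical over all 68 bases, with matches starting 34 bases apart in both. Those of Ifit1 started 104 and 85 bases before the start of the gene, 19 bases apart, and Isg15 held 3 matches that run into each other. A match describes letters in a window and was not tested as a binding site. In tumor eosinophils the median log2 change was 1.66 for the 12 with a match that were tested and 1.63 for the 11 without. Of these, 4 and 2 were called higher, where 2.42% of all genes tested were. Ifit3 and Ifit3b (with a match) and Ifit2 (without) reached 10 normalised reads in no naive library. They entered the test through their tumor libraries, so these medians and counts lean upward.

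Recovered reads per library ranged over 4452513 to 7469714 (naive eosinophils), 1978466 to 8520874 (tumor eosinophils), 1477255 to 7945096 (naive macrophages) and 2289383 to 7636153 (tumor macrophages). An eosinophil marker list of 10 genes summed to 804 to 9553 CPM (reads scaled to a common library total) in the eosinophil libraries and to 8.12 to 71.6 in the macrophage libraries. A macrophage list of 10 genes summed to 9989 to 14321 CPM in the macrophage libraries, 268 and 356 in naive eosinophils and 444 to 694 in tumor eosinophils. Without Csf1r the latter were 62.0 and 115 CPM (naive) and 186 to 559 CPM (tumor). Of 10 neutrophil markers, Retnlg alone made up 98.4% of the sum in naive and 90.9% in tumor eosinophils. The other 9 summed to 104 and 181 CPM (naive) and 260 to 1162 CPM (tumor). Of 8 markers of B and plasma cells, Igkc made up 92.7 to 96.7% of the sum in each group, and the other 7 summed to 121 to 484 CPM in the eosinophil and 596 to 3237 CPM in the macrophage libraries. Mitochondrially encoded transcripts took 34.9 and 35.2% of reads in tumor eosinophil libraries 2 and 3, against 15.2 to 25.1% in the other 5 tumor and 17.9 and 24.5% in the naive ones.

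Tumor eosinophils held more of the interferon-stimulated transcripts than naive eosinophils, and 7 of the 30 members tested rose: Irf9, Ifit1, Ifit3, Ifit3b, Ifitm3, Rtp4 and Lgals3bp. None was called lower, where 2.21% of all genes were, and the 18 members with an unadjusted p under 0.05 were all higher (19.7% of all genes had such a p in either direction). Values are the authors' normalised reads, and changes were tested with limma on log2(value + 1), with Benjamini-Hochberg adjustment over all 12984 genes tested and calls at an adjusted p under 0.05. The members called higher made up 23.3% of those tested, and 2.42% of all genes were called higher. Of the 30 members, 29 had a positive log2 change, with a median of 1.60 against 0.01 over all genes. In 18 members every tumor library lay above both naive libraries, which held for 7.32% of all genes, and in none was every tumor library below (9.77%). Ifit2, Ifit3, Ifit3b, Oas2 and Rtp4 had no naive library at 10 and entered the test through their tumor libraries, so the counts and the median over tested members lean upward. Apart from these, the called members were Irf9, Ifit1, Ifitm3 and Lgals3bp. In bulk libraries, more cells that carry a transcript and more transcript per cell cannot be told apart. In the same comparison the macrophage markers C1qb and C1qc and the neutrophil markers S100a8, S100a9 and Csf3r rose, and of 10 eosinophil markers Siglecf, Ccr3 and Il5ra fell and none was called higher. The median log2 change of those 10 was 0.30, and the granule genes Prg2 (189 and 238 CPM in naive, 269 to 7601 CPM in tumor libraries), Epx, Ear1, Ear2 and Ear6 had higher means in tumor libraries. These genes varied widely there, with Epx at 0 to 235 CPM. Alox15 (606 and 890 CPM in naive, 192 to 539 CPM in tumor libraries) and Cebpe had lower means in tumor libraries. The part of these markers in the members' results was not tested.

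**Figure D1:**
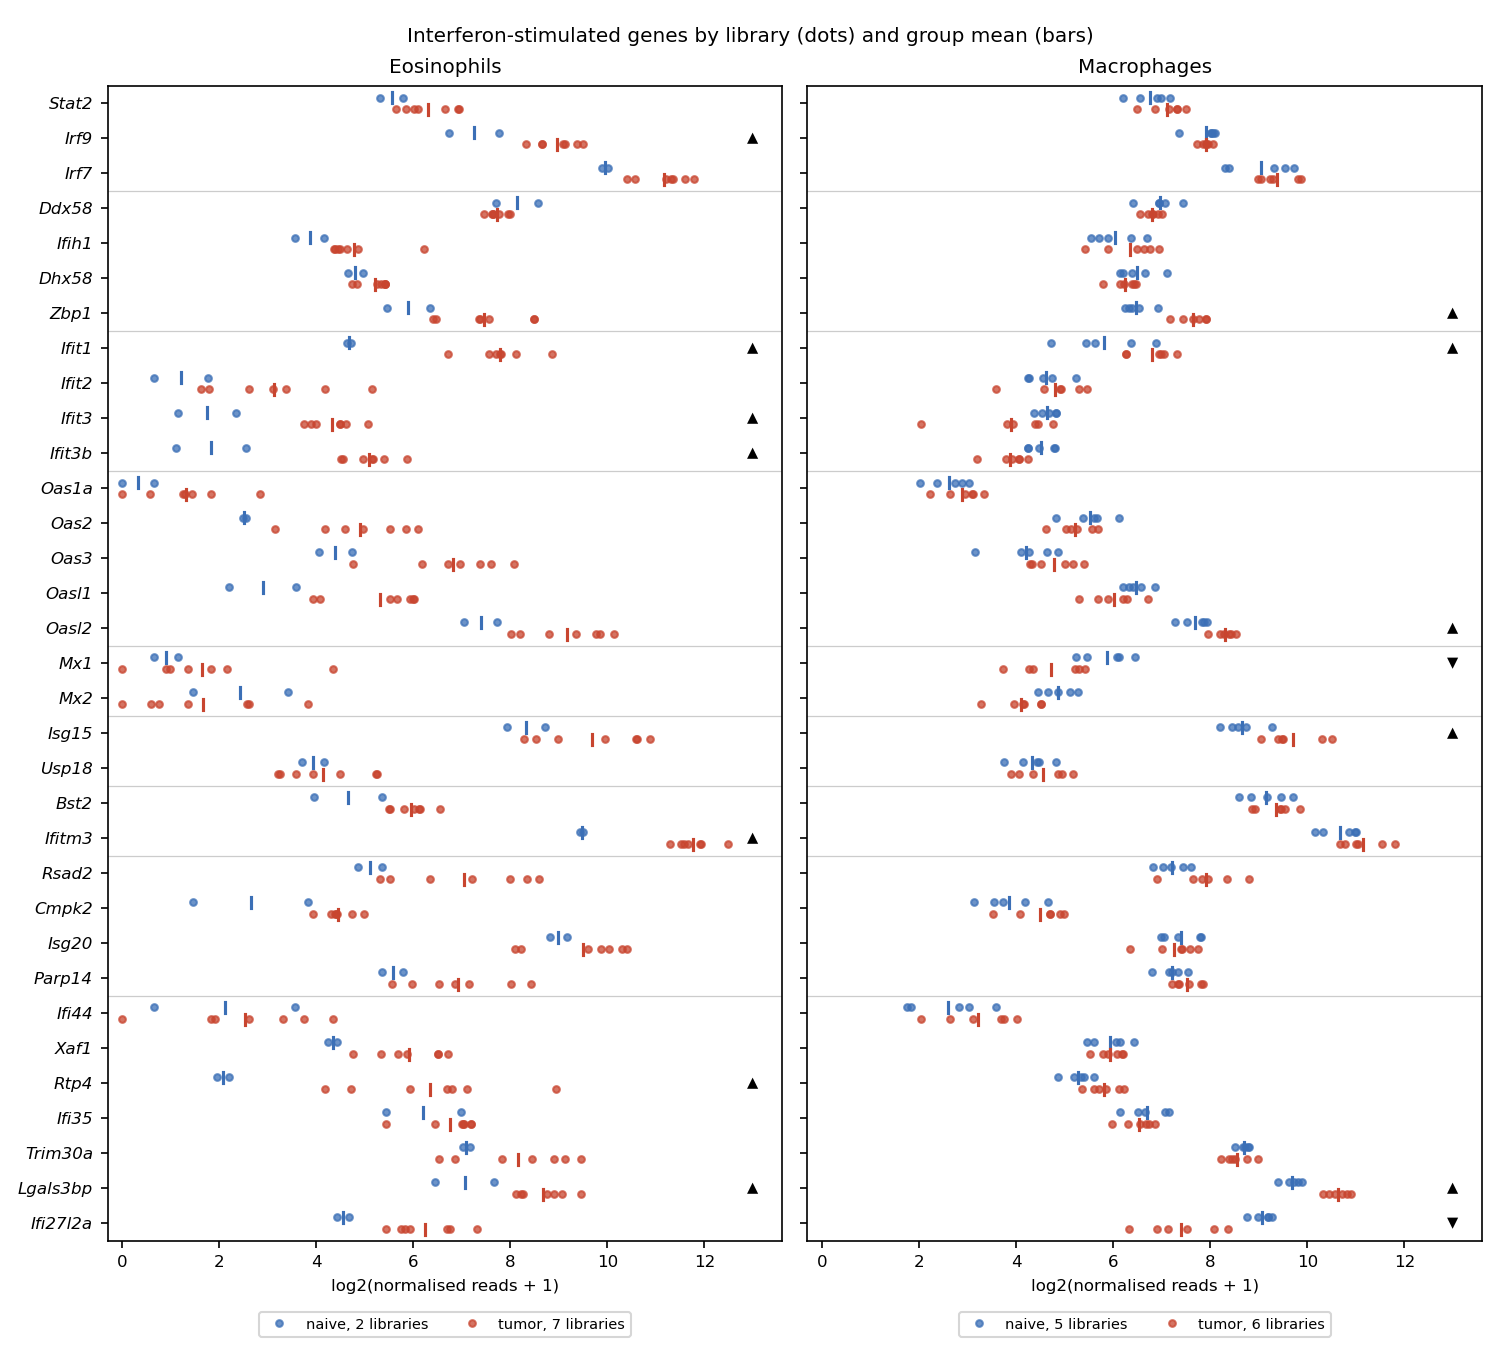
Normalised reads on a log2(value + 1) axis for the 33 genes in eosinophils (left) and macrophages (right), with 1 dot per library (blue naive, red tumor), bars at group means and triangles at the right for genes called higher or lower. The red dots lie right of the blue ones for most genes in eosinophils, and the groups overlap for most genes in macrophages.

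Of the transcription factors that carry the signal, Irf9 was called and Irf7 and Stat2 were not. Irf9, the DNA-binding subunit of ISGF3, stood at 215 and 105 normalised reads in naive eosinophils 1 and 2 and 321 to 722 (median 542) in tumor eosinophils. All 7 tumor libraries were above both naive ones, and the log2 change was 1.72 ± 0.37 (SE; limma adjusted p = 0.0207). Irf7, the factor that amplifies interferon production, had the most reads of these factors, at 942 and 1030.0 in naive and 1359.9 to 3510.1 (median 2548) in tumor libraries. Here too the groups did not overlap, yet the adjusted p of limma was 0.0736 at a log2 change of 1.23 ± 0.36. For Stat2, another subunit of ISGF3, the change was 0.75 ± 0.42 with an adjusted p of 0.35.

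The cytosolic sensors gave no call in eosinophils. Ddx58, which encodes the viral RNA sensor RIG-I, was the 1 member with a negative change: it stood at 208 and 377 in naive libraries and 174 to 253 (median 198) in tumor libraries, with overlapping groups. Zbp1, a sensor of Z-form nucleic acids, stood at 42.9 and 79.7 in naive and 84.1 to 359 (median 166) in tumor libraries, all 7 above both naive values (log2 change 1.55 ± 0.55, limma adjusted p = 0.134). Ifih1, which encodes the RNA sensor MDA5, and Dhx58, which encodes LGP2, had changes of 0.91 and 0.40.

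The genes of the IFIT proteins, which bind viral RNA and block its translation, held 3 of the 7 calls (2.42% of all genes were called higher). Of these, Ifit3 and Ifit3b had no naive library at 10 and entered the test through their tumor libraries, so this count leans upward. Ifit1 was at 23.8 and 25.4 normalised reads in the naive libraries and 104 to 460.2 (median 218) in tumor libraries. The lowest tumor library was well above both naive ones, and the log2 change was 3.12 ± 0.43 (adjusted p = 0.00287 by limma). Ifit3 rose from 4.06 and 1.21 to values of 12.4 to 32.5 (median 21.5), a log2 change of 2.58 ± 0.56 (limma adjusted p = 0.023). Ifit3b, its neighbouring copy, rose from 1.16 and 4.83 to values of 21.8 to 57.3 (median 34.3) (3.26 ± 0.53, limma adjusted p = 0.00547). Both copies were nearly silent in naive libraries, with 8 and 6 reads in all, and their groups did not overlap. Of 50-base words in the last 500 bases of the Ifit3 transcript, 14.9% occur in Ifit3b too, so reads there may have been split between the copies. Ifit2 had 3 reads in naive libraries and reached 34.4 normalised reads in tumor library 6, without a call (1.90 ± 0.96, adjusted p = 0.3).

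Of the OAS family, some of whose members make the second messenger of RNase L, 4 of 5 were tested. These separated the groups without passing the threshold. Oasl2, the one with the most reads, was at 210.0 and 132 in naive and 259 to 1129 (median 652) in tumor libraries. Oas3 was at 25.5 and 15.7 in naive and 26.2 to 269 (median 124) in tumor ones. Every tumor library of both genes was above both naive ones, and so was every tumor library of Oas2 (4.64 and 4.83 in naive, 7.91 to 67.8 (median 30.1) in tumor) and Oasl1 (11 and 3.62 in naive, 14.3 to 63.9 (median 49.6) in tumor). Their log2 changes ran from 1.77 (Oasl2) to 2.42 (Oas3), with adjusted p-values of limma from 0.0565 (Oasl1) to 0.0763 (Oasl2).

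Among the effectors at membranes, Ifitm3, which blocks entry of viruses from endosomes, was at 724 and 689 in naive libraries and 2506 to 5734 (median 3237) in tumor libraries. No tumor library came near the naive values, and the change of 2.30 ± 0.31 had an adjusted p of 0.00271 by limma. Of 50-base words at the 3′ end of Ifitm3, 14.0% are shared with Ifitm1, Ifitm2 and pseudogenes. Bst2, the tether that holds budding viruses, had a log2 change of 1.29 ± 0.43 without a call (adjusted p = 0.115). Isg15, a ubiquitin-like modifier, spread over 309 to 1866 (median 981) in tumor libraries and overlapped the naive values of 418 and 242 (log2 change 1.37 ± 0.65, adjusted p = 0.265). Usp18, the protease that removes ISG15 and damps the receptor, was at 16.8 and 12.1 in naive and 8.27 to 37.1 (median 14.3) in tumor libraries.

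None of the antiviral enzymes passed the test. The nuclease gene Isg20, with the most reads of them, was at 447 and 575 in naive libraries and 273 to 1350.4 (median 932) in tumor libraries, and tumor libraries 2 and 3 lay below both naive values. Rsad2 (viperin), which makes a chain-terminating nucleotide, and its neighbour Cmpk2 had log2 changes of 1.94 ± 0.79 and 1.81 ± 0.60. Parp14, an ADP-ribosyltransferase, stood at 1.35 ± 0.63 on that scale.

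Of the other induced genes, Rtp4 and Lgals3bp were called. Rtp4, a chaperone of receptors at the cell surface, had 2.90 and 3.62 normalised reads in naive libraries and 17.2 to 488 (median 103) in tumor libraries. All 7 tumor libraries were higher, library 6 by far the most, and the log2 change was 4.25 ± 0.93 (limma adjusted p = 0.0233). Lgals3bp, a secreted glycoprotein that binds galectins, rose from 203 and 85.7 to values of 277 to 702 (median 433) (1.63 ± 0.41, limma adjusted p = 0.0424), with no overlap. Ifi27l2a, a mitochondrial protein, separated the groups too, at 24.4 and 20.5 in naive and 42.1 to 158 (median 59.8) in tumor libraries, without a call (1.70 ± 0.48, adjusted p = 0.0656 by limma). Xaf1, Trim30a, Ifi35 and Ifi44 had log2 changes of 1.57, 1.07, 0.55 and 0.42.

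The number of calls in eosinophils moved with the libraries and the method. It was 4 with edgeR's quasi-likelihood test (Irf9, Ifit1, Ifit3b and Ifitm3) and 16 with DESeq2, as calls of higher genes over all 12984 genes went from 314 to 201 and 693. Without naive library 2 it was 3 (Ifit1, Ifit3b and Ifitm3; 72 genes in all), since adjusted p-values of limma rose to 0.325 for Irf9, 0.277 for Ifit3, 0.212 for Rtp4 and 0.507 for Lgals3bp. Rtp4 also lost its call without naive library 1 (0.0848), Ifit3 without tumor library 1 (0.0501) and Lgals3bp without any of tumor libraries 1, 2, 3 and 7 (0.0592 to 0.0698). Without tumor library 2 the number was 11 (321 genes in all). Ifit1 and Ifitm3 kept their calls in all 18 alternatives run, with adjusted p-values of 7.33e-09 to 0.0431 and 4.35e-10 to 0.0356. Among these 18 is the replicate block, whose eosinophil change rests on libraries 1 and 2 and cannot test whether the calls hold.

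The 7 tumor eosinophil libraries did not hold the same level of the program. Library by library, 28, 21, 21, 26, 27, 28 and 29 of the 30 tested members were above both naive libraries in tumor libraries 1 to 7, where 32.6 to 36.8% of all genes were. The median member lay 1.41, 0.64, 0.59, 1.53, 1.86, 2.24 and 1.98 log2 units above the naive mean. Among the 30 are the 5 members with no naive library at 10, so these counts and medians lean upward. Libraries 2 and 3, those with the largest mitochondrial share, were thus the lowest, and library 6 the highest. In 18 of the 30 members both libraries were below all 5 other tumor libraries, as for 10.6% of all genes, and in 0 were they above them (9.59% of all genes). Isg15 was at 309 and 369 there, within the naive range, against 504, 981, 1545, 1866 and 1552 in libraries 1, 4, 5, 6 and 7. Rsad2 was at 45 and 38.6, against 80.7 to 383 in the others.

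Other members followed another order. Ifitm3 was highest in tumor library 2, at 5734, against 2506 to 3868 elsewhere. Lgals3bp was highest in libraries 1, 2 and 3 (702, 475 and 534) and lower in 4 to 7 (277 to 433). Epithelial markers, 9 genes, summed to 3260 to 3845 CPM in libraries 1 to 3, 1227 to 1825 in libraries 4 to 7 and 1209 and 1712 in naive eosinophils. Libraries 2 and 3 also had the lowest sums of eosinophil markers (804 and 913 CPM, against 1064 to 9553 in the other tumor libraries), of the 9 neutrophil markers other than Retnlg (267 and 260, against 877 to 1162) and of 6 monocyte markers (134 and 137, against 195 to 372). The part of the mitochondrial share and of the makeup of the sort in these differences was not tested. Without libraries 2 and 3 together, 14 members were called higher in eosinophils, of 302 genes in all: Lgals3bp was no longer called (0.0904), and Irf7, Zbp1, Oas2, Oas3, Oasl1, Oasl2, Rsad2 and Xaf1 were added.

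**Figure D2:**
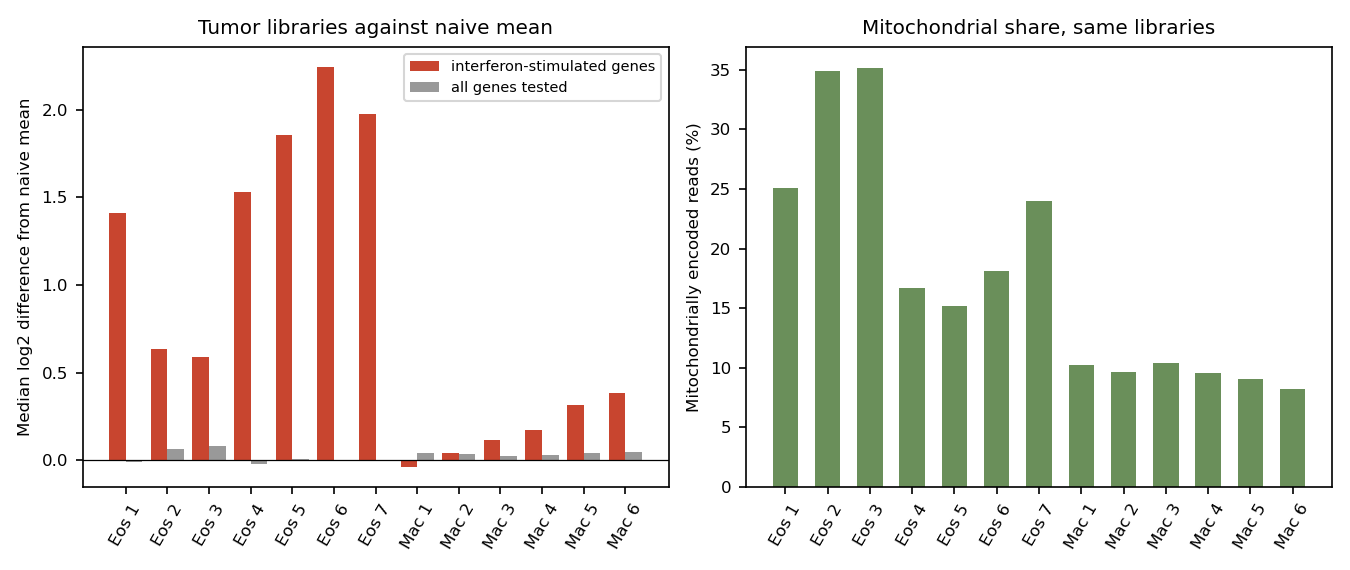
Median log2 difference from the naive mean of the same cell type for the interferon-stimulated genes (red) and for all genes tested (grey) in each tumor library, left, and the share of mitochondrially encoded reads in percent, right. Tumor eosinophil libraries 2 and 3 have the lowest red bars of the eosinophils, 0.64 and 0.59, and the tallest mitochondrial bars, 34.9 and 35.2%. The red bars of the eosinophils include the 5 members with no naive library at 10 and lean upward.

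Macrophages showed no such general rise. In tumor macrophages 5 of the 31 tested members rose (Zbp1, Ifit1, Oasl2, Isg15 and Lgals3bp) and 2 fell (Mx1 and Ifi27l2a). These are 16.1 and 6.45% of the members tested, against 8.49% of all 11536 genes called higher and 8.61% called lower. The median log2 change of the members was 0.20 (0.02 over all genes), with 18 positive and 13 negative. An unadjusted p under 0.05 was found for 12 members, and for 30.4% of all genes. Groups did not overlap for 3 members that were higher and 1 that was lower, where 5.19 and 5.47% of all genes were so separated. With reads scaled to nuclear-encoded genes, which moved the median of all genes by 0.18, 8 members were called higher and Ifi27l2a alone lower.

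Zbp1 was at 74.9, 82.3, 79.8, 119.8 and 91.0 normalised reads in naive macrophages 1 to 5 and 143 to 239 (median 208) in tumor macrophages, all 6 above all 5 (log2 change 1.16 ± 0.17, limma adjusted p = 0.000248). Lgals3bp was at 952, 839.9, 893, 787 and 677 and then 1282 to 1905 (median 1599), again without overlap (0.94 ± 0.14, limma adjusted p = 0.000205). Oasl2 was at 243, 153, 233, 228 and 182 in naive and 246 to 367 (median 323) in tumor libraries, separated by a small step (0.61 ± 0.15, limma adjusted p = 0.0115). These were the members whose tumor libraries all exceeded the naive ones.

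Isg15 was at 382, 425, 346, 619 and 294 in naive and 526 to 1461 (median 715) in tumor libraries, and 5 of 6 tumor libraries were above all naive ones (1.06 ± 0.26, limma adjusted p = 0.00975). Ifit1 was at 118, 25.4, 81.1, 48.1 and 42.5 in naive and 75.7 to 159 (median 124) in tumor libraries, with an overlap through naive libraries 1 and 3. Its change of 1.0 ± 0.33 was just past the threshold (limma adjusted p = 0.0489) and was not called without naive library 2, 4 or 5 or tumor library 1, 2, 5 or 6 (adjusted p = 0.0787 to 0.122).

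Ifi27l2a went the other way, from 585, 429, 614, 504 and 579.7 in naive to values of 79.1 to 331 (median 161) in tumor macrophages. Every tumor library was below every naive one, and the log2 change was −1.68 ± 0.29 (limma adjusted p = 0.000973), called in all 19 alternatives. Mx1, a gene of the Mx GTPase family, fell with some overlap (−1.15 ± 0.33, limma adjusted p = 0.0239). Its transcript went from 42.8, 68.2, 86.2, 66.4 and 36.4 to values of 12.2 to 41.5 (median 27.8). Mx1 was not called without naive library 2, 3 or 4 or tumor library 5 (adjusted p = 0.054 to 0.0692). Mx2, its neighbour, which the annotation gives as a polymorphic pseudogene, had a change of −0.77 ± 0.27 (adjusted p = 0.064).

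The factors gave no call in macrophages: Irf9 was at 266, 257, 272, 257 and 164 in naive and 212 to 266 (median 240.1) in tumor libraries (−0.00 ± 0.14), and Irf7 at 843, 316, 742, 333 and 637 in naive and 507 to 933 (median 616) in tumor libraries (0.32 ± 0.26). The other tested members were not called either, with log2 changes from −0.77 (Mx2) to 0.70 (Rsad2). Of a plasmacytoid dendritic cell marker list, a cell type known for making type I interferon, Siglech, Tcf4 and Klk1 fell in the macrophage sort, while the summed list was at 258 to 316 CPM in naive and 202 to 350 CPM in tumor libraries. Of 7 conventional dendritic cell markers 5 fell there (Flt3, Xcr1, Clec9a, Itgae and Dpp4). Ccr7, the leading gene of that list, was at 20.1 to 92.6 CPM in naive and 56.3 to 233 CPM in tumor libraries. Without Ccr7 the list summed to 52.0 to 152 CPM in naive libraries and 24.0 to 62.8 CPM in tumor ones. All 7 together overlapped, at 72.0 to 218 CPM in naive and 96.5 to 286 CPM in tumor libraries. Of 10 T and NK cell markers, Cd4 fell (384 to 524 CPM in naive, 71.0 to 176 CPM in tumor libraries), and the other 9 summed to 11.8 to 21.0 and 12.2 to 19.7 CPM in these macrophages, while the neutrophil markers S100a8, S100a9, Ly6g and Mmp8 rose. Of the 10 macrophage markers, Cx3cr1, Mrc1 and Cd163 fell and none was called higher. Cd163 was at 37.4 to 88.3 CPM in naive and 0.44 to 1.05 CPM in tumor libraries. Of 6 monocyte markers, Plac8 and Fn1 rose and Ly6c2 and Ccr2 fell. The part of the makeup of the sort in the macrophage results was not tested.

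The change in tumors was larger in eosinophils than in macrophages for 9 of 32 members and smaller for 0. For this test all 20 libraries were scaled together and fitted in 1 limma model, and the difference of the log2 changes was tested over 15578 genes. The 9 are 28.1% of the members tested, where 1.8% of all genes were called in that direction and 2.12% in the other. The 13 members with an unadjusted p under 0.05 were all larger in eosinophils (18.4% of all genes had such a p in either direction). The median difference was 1.08 for the members and −0.06 over all genes.

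**Figure D3:**
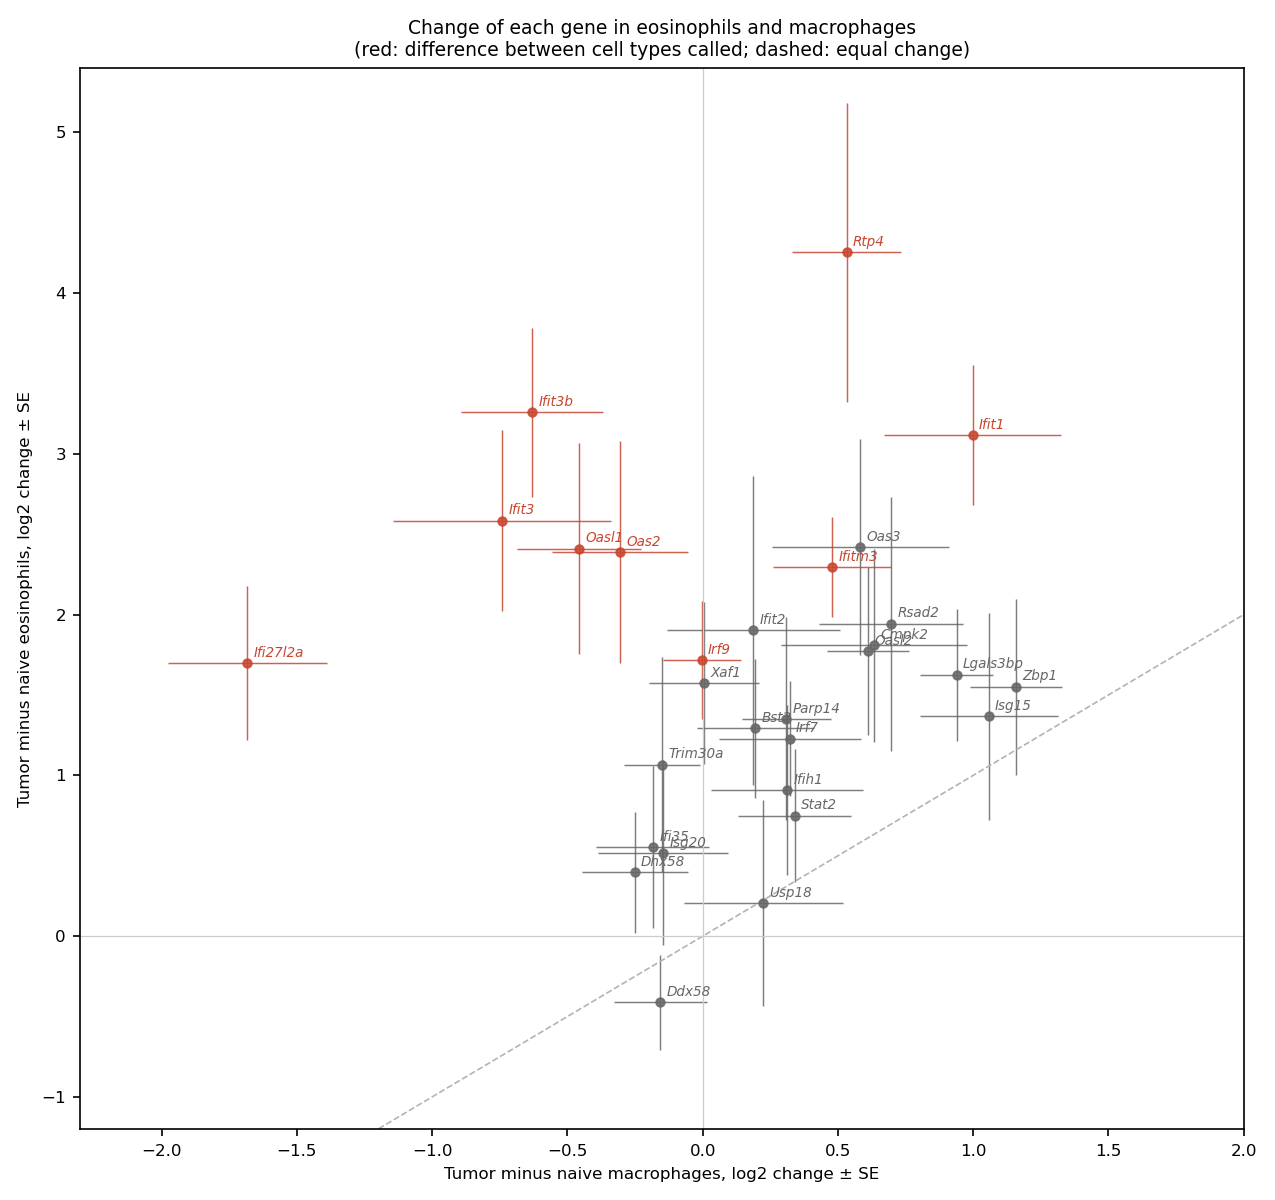
Log2 change from naive to tumor, ± SE, in macrophages (horizontal) and eosinophils (vertical) for each gene tested in both, with genes whose difference between the cell types was called in red. The red genes lie above the dashed line of equal change, with Rtp4 at the top and Ifi27l2a at the far left.

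Ifit3b differed most, by 3.94 ± 0.55 (SE; limma adjusted p = 0.000204). In macrophages it was at 17.8, 17.9, 27.0, 26.7 and 21.2 normalised reads in naive and 8.16 to 18.0 (median 14.9) in tumor libraries, so its small change there was downward and not called (−0.63). Ifit3 (3.37 ± 0.70, limma adjusted p = 0.00743) had the same pattern, at 19.6, 22.1, 24.4, 27.2 and 27.3 in naive and 3.14 to 26.2 (median 17.2) in tumor macrophages. Ifi27l2a differed by 3.29 ± 0.54 (limma adjusted p = 0.00112), since it fell in macrophages and had a positive, uncalled change in eosinophils.

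Rtp4 differed by 3.72 ± 0.87 (limma adjusted p = 0.0178), with 41.0, 35.7, 28.3, 47.6 and 39.5 in naive and 40.2 to 74.1 (median 54.0) in tumor macrophages. Oasl1 (2.82 ± 0.67, limma adjusted p = 0.0187) and Oas2 (2.65 ± 0.70, limma adjusted p = 0.0337) were called for the difference although neither was called within a cell type. In macrophages Oasl1 was at 94.5, 79.5, 83.6, 115 and 72.8 and then 38.5 to 105 (median 65.6), and Oas2 at 49.9, 40.4, 47.6, 68.5 and 27.3 and then 23.5 to 50.6 (median 35.6). Ifit1 (2.02 ± 0.55, limma adjusted p = 0.0404), Ifitm3 (1.71 ± 0.38, 0.0122) and Irf9 (1.61 ± 0.36, 0.0129) complete the group. Ifitm3 was at 1856, 1139.5, 2021, 1281 and 2058 in naive and 1643 to 3606 (median 2082) in tumor macrophages. Without naive eosinophil library 2 the calls were 2, Ifit3b and Ifi27l2a, with adjusted p-values of 0.102 (Ifitm3) to 0.257 (Oasl1) for the other 7. Ifit1 and Oas2 also lost the call without macrophage libraries, naive 1, 3 or 4 for both, tumor 1 to 5 for Ifit1 and tumor 6 for Oas2, and Ifit1 without naive eosinophil library 1 or tumor eosinophil library 1 (adjusted p = 0.0504 to 0.0746).

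In naive colon 27 of 32 members had a lower fitted level in eosinophils than in macrophages, and in tumors 16 did. On the joint scale, 16 of 32 members were called lower and 3 higher in naive eosinophils (50 and 9.38% of members, against 14.9 and 14% of all genes), with a median difference of −1.30. In tumors 8 were lower and 9 higher (25 and 28.1%, against 23.4 and 18.5% of all genes), with a median of −0.05. Cell type and sort cannot be told apart here.

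Ifit3b and Ifitm3 changed sides. Ifit3b was at 4.29 ± 3.54 jointly scaled reads (SD, n = 2) in naive eosinophils and 26.3 ± 5.69 (n = 5) in naive macrophages, a log2 difference of −2.53 ± 0.46 (limma adjusted p = 0.000177). In tumors it was at 50 ± 17.3 (n = 7) and 17.7 ± 4.14 (n = 6), a difference of 1.42 ± 0.31 (limma adjusted p = 0.000737). With limma-voom and quality weights the naive calls of Ifit3b (0.056) and Ifitm3 (0.146) ended. Ifitm3 differed by −0.89 ± 0.32 in naive colon (adjusted p = 0.0377, not called without either naive eosinophil library, 0.108 and 0.207, without naive macrophage library 1 or 3, or without tumor macrophage library 5 or 6). In tumors it differed by 0.82 ± 0.21 (limma adjusted p = 0.00327).

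Irf7, Ddx58 and Isg20 were higher in eosinophils in both tissues. Irf7 was at 1452 ± 3.48 jointly scaled reads in naive eosinophils against 674 ± 261 in naive macrophages, and at 3514 ± 1133 against 854 ± 207 in tumors. The log2 differences were 1.20 ± 0.37 and 2.0 ± 0.24 for Irf7, 1.49 ± 0.27 and 1.12 ± 0.18 for Ddx58 and 1.90 ± 0.49 and 2.46 ± 0.33 for Isg20. The naive call of Irf7 ended without naive eosinophil library 1 (0.0578) or 2 (0.0913) and with limma-voom and quality weights (0.108), and that of Isg20 without library 2 (0.0616).

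Bst2, Dhx58, Ifi27l2a, Ifih1, Ifit2, Lgals3bp and Mx1 were lower in eosinophils in both tissues. Bst2 differed by −4.20 ± 0.38 in naive colon and −3.20 ± 0.25 in tumors, and Mx1 by −4.93 ± 0.82 and −3.07 ± 0.54. Ifi27l2a narrowed from −4.24 ± 0.45 to −0.95 ± 0.30. The latter call ended without tumor macrophage library 1 (0.0526) or 2 (0.0593) and without the tumor eosinophil libraries 2 and 3 together (0.0763). The tumor call of Ifit2 ended without those same eosinophil libraries (0.11). The naive calls of Dhx58 and Ifih1 ended without naive eosinophil library 2 (0.0508 and 0.0843). With limma-voom and quality weights the naive calls of Dhx58 (0.0701), Ifih1 (0.154) and Ifit2 (0.149) ended. In tumors Irf9, Ifit1, Oas3 and Oasl2 were higher in eosinophils, by 1.26, 1.19, 2.24 and 1.07 on the log2 scale, and Mx2 was lower (−2.40).

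**Figure D4:**
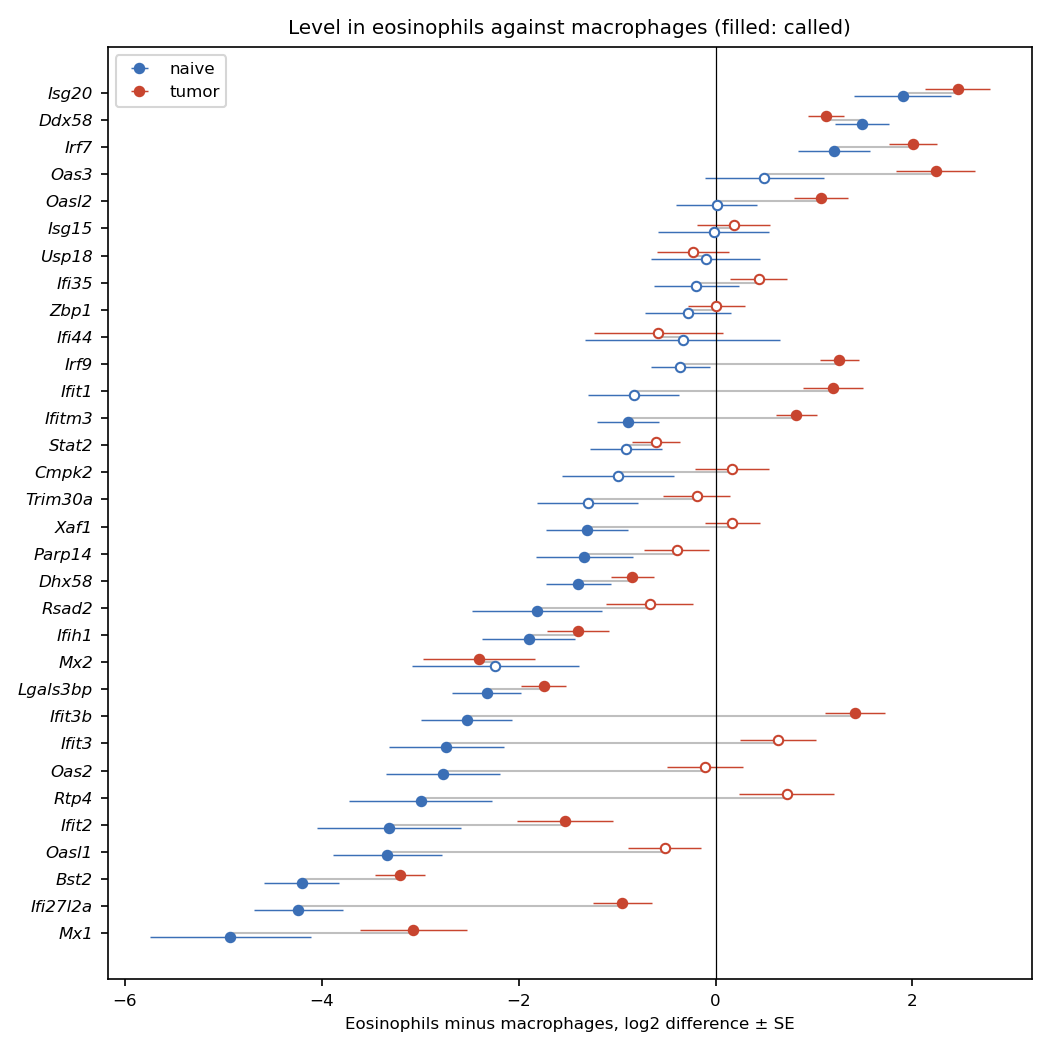
Log2 difference of each gene between eosinophils and macrophages on the joint scale, ± SE, in naive colon (blue) and tumors (red), with filled dots for differences that were called. Ifit3b and Ifitm3 have filled dots on both sides of 0, and Mx1, Ifi27l2a and Bst2 are the lowest in naive eosinophils relative to naive macrophages.

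A few members were near 0. Oas1a reached 10 in no library of either cell type, with 1 and 16 reads over all naive and tumor eosinophils and 30 and 67 in the macrophages, and it shares 56.1% of the 50-base words at its 3′ end with Oas1g. Mx1 and Mx2 did not reach 10 in 2 eosinophil libraries and were not tested there: Mx1 was at 0.580 and 1.21 in naive and 0 to 19.4 (median 1.55) in tumor libraries, and Mx2 at 1.74 and 9.66 in naive and 0 to 13.1 (median 1.55) in tumor ones. Ifi44 did not reach 10 in enough macrophage libraries, at 7.13, 2.35, 2.57, 11 and 6.07 in naive and 3.13 to 15.2 (median 9.78) in tumor ones. No member was at 0 in all libraries.

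Genes that make, receive or restrain interferon were followed as lists. Of 20 genes of type I and III interferons, eosinophils had 0 reads in the naive and tumor libraries alike, which allows up to 0.252 and 0.0782 CPM (3 reads over each group, counting error alone). Macrophages had 17 reads in naive libraries, all of Ifnb1, and 16 reads of 6 ligand genes in tumor libraries. Of 7 receptor and kinase genes, none was called in eosinophils.

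Ifng, the type II interferon, which induces many of the same genes, was at 24.8, 53.8 and 24.8 normalised reads in tumor eosinophil libraries 5, 6 and 7, at 0 to 3.43 in libraries 1 to 4 and at 2.90 and 0 in the naive ones. Of the 4 type II ligand and receptor genes, the receptor chain Ifngr2 rose in eosinophils (1.26) and none was called in macrophages. In macrophages Ifng was at 4.23 and 5.15 in naive libraries 2 and 3 and at 0 to 1.57 in the others, and at 11.7, 28.2 and 20.9 in tumor libraries 2, 5 and 6 and 0 to 2.86 in the rest. In tumor eosinophils 9 T and NK cell markers other than Cd4 summed to 39.9 CPM in library 6 and to 9.74 to 25.5 CPM in the other libraries, and Cd4, which the macrophage sort also holds, to 45.5 and 4.11 to 28.7 CPM. Their part in the order of libraries was not tested.

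Of 20 genes that induce interferon, 16 were tested in eosinophils and none was called, while in macrophages 18 were tested, Tmem173 (STING, 0.57) and the kinase Ikbke (1.33) rose and the receptors Tlr3 (−0.85) and Tlr7 (−0.81) fell. These are 11.1% of the list in each direction, near the 8.49 and 8.61% of all genes called in macrophages. Of 7 other genes of the IRF family or its partners, Irf1 rose and Irf2bp2 fell (−1.77) in eosinophils. The change of Irf1 was 2.44 ± 0.57 (limma adjusted p = 0.03). In macrophages 2 of the 7 were called higher, Irf1 (0.65) among them, and Irf4 fell (−1.24). These are 28.6 and 14.3% of that list, against 8.49 and 8.61% of all genes. In eosinophils each direction is 16.7% of the 6 IRF genes tested, or 1 gene. Of 16 negative regulators, the feedback inhibitor Socs3 rose (1.82) and Tnfaip3 fell (−1.32) in eosinophils, and Socs1 (1.01) and Samhd1 (0.63) rose in macrophages. The calls in eosinophils are 6.67% of the regulators tested in each direction (2.42 and 2.21% of all genes) and those in macrophages 14.3% (8.49% of all genes), and each rests on 1 or 2 genes. For the difference between cell types, Irak1 (−0.97) and Irf2bp2 (−1.65) were called lower and none of these lists had a gene called higher.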

How the data were processed

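Per the labels' protocols, colons were digested, cells sorted and RNA extracted with Trizol, and each CEL-Seq sample had 3 technical replicates. The submitters' processing notes name TopHat2 2.1.0, HTSeq 0.6.1, DESeq2 1.14.1 and GRCm38.p5. The sources used here do not say how technical replicates were combined or whether counting used the strand. Irf9, Parp14 and Rtp4 overlap exons of another gene on the same strand and Irf7, Dhx58, Oasl1, Usp18 and Ifi35 on the opposite one, so their reads may be shared.

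The authors deposited 1 table per cell type, a normalised signal in which read counts were divided by a factor per library. All 374526 non-zero values were whole multiples of 1 read within 0.1 read, which gave back reads and depth.

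Values were tested as log2(value + 1) in limma 3.58.1 (eBayes with trend, two-sided, R 4.3.3), for genes at 10 or more in at least 2 eosinophil or 5 macrophage libraries, each cell type alone. The log scale understates changes of low genes. The joint fit used reads scaled by TMM factors (edgeR 4.0.16) and genes at 10 in at least 2 libraries. Alternatives were another pseudocount, no filter, other scalings, limma-voom, edgeR's quasi-likelihood test and DESeq2 1.42.0 on recovered reads, a replicate block and leaving out libraries. The limma fits were also run on simulated counts with the same spread setting for every gene. That run cannot show how they perform at the spread of these libraries.

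Members and lists were chosen with earlier results of these data known. Values per library are given for members called in either cell type or for the difference and for the most abundant member of each role. Comments on other members were chosen after their values were seen. Some genes of the pathway lists are not reported here.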

Additional observations from a re-analysis of the deposited data

Results flagged for a closer look

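In 96 groups of libraries examined (a member in a group of 4 to 10 libraries), 6 had a library far from the rest by Dixon's criterion, and chance alone gives about 1 in 20. In tumor eosinophil library 6, Rtp4 stood at 488 normalised reads (17.2 to 136 in the other tumor libraries), Ifih1 at 73.1 (19.7 to 27.9) and Mx1 at 19.4 (0 to 3.45). In tumor eosinophil library 5, Mx2 stood at 13.1 (0 to 5.15), and in library 2 Ifitm3 stood at 5734 (2506 to 3868). In naive macrophage library 5, Irf9 stood at 164 (257 to 272).

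The change from naive colon to tumor differed between eosinophils and macrophages, by the limma test of the difference itself, for Irf9 (1.61 log2 units larger in eosinophils), Ifit1 (2.02), Ifit3 (3.37), Ifit3b (3.94), Oas2 (2.65), Oasl1 (2.82), Ifitm3 (1.71), Rtp4 (3.72) and Ifi27l2a (3.29).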

How the results depend on the processing

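No member's called change turned direction under any alternative. Members called higher in tumor eosinophils numbered 7, against 16 with DESeq2, 4 with edgeR's quasi-likelihood test, 2 with limma-voom and quality weights, 14 with reads scaled to nuclear-encoded genes and 14 without the tumor libraries of highest mitochondrial share. Over all genes the calls higher numbered 314, against 693, 201, 45, 424 and 302 in that order. In macrophages the 5 higher and 2 lower became 8 and 1 with nuclear scaling. That scaling moved the median log2 change of all genes by 0.23 in eosinophils and 0.18 in macrophages, and the share of calls that were higher from 52.2 to 71.6% and from 49.6 to 71.2%. The 9 members called higher for the difference became 1 with limma-voom (all genes from 280 to 33), and the 16 lower in naive eosinophils than in naive macrophages became 4 (all genes from 2327 to 893). In macrophages all genes called higher went from 979 to 1614 with nuclear scaling. The cause of these differences was not tested.

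Leaving out 1 library at a time gave 3 to 11 members higher and 0 lower in eosinophils, 4 to 6 higher and 1 to 2 lower in macrophages, 2 to 10 higher and 0 lower for the difference, 1 to 3 higher and 11 to 17 lower between naive cell types, and 9 to 10 higher and 7 to 9 lower between tumor cell types. In macrophages replicate numbers gave no sign of pairing: deviations of same-numbered libraries correlated at −0.31 to 0.06. In the 2 eosinophil pairs they correlated at 0.13 and 0.12, the highest for each naive library (0.06 and 0.05 came next). With 2 naive libraries these deviations mirror each other, so the check cannot decide on pairing in eosinophils. With the replicate block, 3 members rose in macrophages, where tumor library 6 has no naive library of its number and is taken up by its own block. The same holds for tumor eosinophil libraries 3 to 7. The eosinophil change then rests on libraries 1 and 2, and that fit cannot test whether the calls hold. Nothing in the labels ties the numbers across cell types, so counts with the block that compare cell types were left out. Depth limits the members at a few reads in naive eosinophils, among them Ifit2, Ifit3, Ifit3b, Oas2 and Rtp4.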
